A study of Homo sapiens with 2 samples.

Results

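The transcripts described here are the expressed long intergenic noncoding RNAs (lincRNAs) of SF-539 cells, a human glioblastoma (GBM) cell line. A gene was taken as a member when the deposited gene table typed it as lincRNA, gave it at least 1 FPKM in both libraries and at least 500 bases of gene length, and did not name it GAS5 or SNHG followed by digits, which leaves out host genes of small nucleolar RNAs. FPKM is the number of sequenced fragments scaled by the length of the gene in kilobases and by the size of the library. The rule was met by 236 of 58735 genes in the table, or by 3.09% of the 7629 lincRNA genes. Because the members were selected on measured values of both libraries, their levels and ratios are a description, and no test was run on them.

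RNA was sequenced from 2 stable derivatives of SF-539 cells, infected with lentiviruses and kept under puromycin to select them. The shControl cells carried the control shRNA and the shFKBP9 cells an shRNA against FKBP9, an endoplasmic reticulum (ER) protein of the FK506-binding family. The study asked what loss of FKBP9 does in GBM cells. There was 1 library per condition, so no difference below has a replicate check, and the effect of the shRNA cannot be told apart from that of the selected clones, the shRNA sequence or the library. All intervals are exact Clopper-Pearson 95% intervals computed from fragments, and they cover counting error only.

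Long noncoding RNAs are transcribed and often spliced like mRNAs but are not translated into a known protein. Some build nuclear bodies, as NEAT1 does for paraspeckles, some bind proteins in the cytoplasm, as NORAD does with Pumilio proteins, and others are the precursors from which DROSHA cuts microRNA hairpins. Many are made at low levels and are known for expression that is confined to few cell types, which makes them sensitive to depth in a library of ordinary size.

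The depth on genes was 18116873 fragments for shControl and 17158514 for shFKBP9. FKBP9 had 49.8 FPKM (4659 fragments) in shControl and 4.68 FPKM (415 fragments) in shFKBP9, a log2 ratio of -3.38 (interval -3.56 to -3.27), so 9.39% of its FPKM was left. The labels call the cells epithelial glioma cells. Of 8 glial and glioma markers, 4 reached 1 FPKM in both libraries (VIM, NES, EGFR and CHI3L1), while the astrocyte marker GFAP had 0.196 and 0.139 FPKM and S100B had 0 and 1 fragments. Of 5 mesenchymal markers 4 reached it, with summed levels of 2327 and 2592 FPKM. Of 4 epithelial markers only KRT8 reached 1 FPKM in both, and of 4 neuron markers only SNAP25. The 4 leukocyte markers together summed to 0.105 and 0.144 FPKM, those of endothelial cells to 0.107 and 0.148 FPKM.

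The lowest ratio of shFKBP9 to shControl among the members was that of LINC01914, and the highest among microRNA hosts that of MIR222HG, so their promoters are shown first. AC144652.1 and CAHM are shown because both lay among the 10 lowest ratios and start back to back with a protein-coding gene, INSIG1 and QKI. Each line gives the RefSeq promoter (GRCh38.p14) from 250 bases before to 50 bases after the annotated start, 5′ to 3′ on the strand of the gene. Capitals mark the letters TATAAA or CACGTG, the E box, in either orientation.
LINC01914, chr2:41933674-41933973, minus strand: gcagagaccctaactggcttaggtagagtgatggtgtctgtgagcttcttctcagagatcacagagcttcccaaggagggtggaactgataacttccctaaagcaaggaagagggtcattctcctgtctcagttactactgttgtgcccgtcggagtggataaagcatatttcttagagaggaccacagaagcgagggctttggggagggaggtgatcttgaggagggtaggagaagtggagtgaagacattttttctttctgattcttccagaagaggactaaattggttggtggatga
MIR222HG, chrX:45770218-45770517, minus strand: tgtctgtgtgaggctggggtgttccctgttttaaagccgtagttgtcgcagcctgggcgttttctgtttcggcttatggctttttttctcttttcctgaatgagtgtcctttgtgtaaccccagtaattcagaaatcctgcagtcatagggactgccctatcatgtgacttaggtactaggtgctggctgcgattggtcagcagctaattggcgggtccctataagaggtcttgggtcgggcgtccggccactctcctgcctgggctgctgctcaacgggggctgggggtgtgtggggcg
AC144652.1, chr7:155297609-155297908, minus strand: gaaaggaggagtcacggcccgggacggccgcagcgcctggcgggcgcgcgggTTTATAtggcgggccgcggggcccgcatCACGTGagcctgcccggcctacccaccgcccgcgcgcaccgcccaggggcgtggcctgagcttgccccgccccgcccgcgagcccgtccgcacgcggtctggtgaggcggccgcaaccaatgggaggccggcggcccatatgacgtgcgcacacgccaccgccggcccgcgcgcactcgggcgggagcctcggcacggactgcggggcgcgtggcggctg
CAHM, chr6:163413901-163414200, minus strand: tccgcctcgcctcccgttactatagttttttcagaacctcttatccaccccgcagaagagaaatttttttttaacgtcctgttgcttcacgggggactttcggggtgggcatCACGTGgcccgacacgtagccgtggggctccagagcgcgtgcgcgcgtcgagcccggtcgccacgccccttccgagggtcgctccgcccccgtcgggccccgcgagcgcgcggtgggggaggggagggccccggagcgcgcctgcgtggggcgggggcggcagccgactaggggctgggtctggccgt

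The promoters of LINC01914 and MIR222HG held 3 and 11 CG dinucleotides, those of AC144652.1 and CAHM 49 and 38. A RefSeq promoter could be matched by name and position to 107 of the 236 members. CACGTG was found in 8.41% of these and in 7.20% of all 34796 RefSeq promoters, TATAAA in 8.41% and 11.6%, CCAAT in 43.0% and 34.6%, and the GC box GGGCGG in 52.3% and 44.9%. The median number of CG dinucleotides was 22 in the members and 14 in all promoters. Since the study concerned ER stress, the letters of 4 stress elements were searched as well, on both strands. The cyclic AMP response element TGACGTCA was in 2 member promoters (1.87%, against 1.84% of all), the core of the unfolded protein response element TGACGTGG in 1 (0.935%, against 0.733%), the amino acid response core TGATGCAA in 1 (0.935%, against 0.871%) and the ER stress response element in 0 (against 0.0776%). These shares describe letters in a window and say nothing of binding by a factor.

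For the microRNA hosts, the mature sequences are shown because they name what each host RNA carries. RefSeq placed 15 hairpins with 27 mature sequences on the strand of 11 members. The lines give 10 of them, with the seed (bases 2 to 8), which pairs with target mRNAs, in capitals.
hsa-miR-221-3p in MIR222HG: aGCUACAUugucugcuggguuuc
hsa-miR-222-3p in MIR222HG: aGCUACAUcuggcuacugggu
hsa-let-7a-5p in MIRLET7BHG: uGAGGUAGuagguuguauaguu
hsa-let-7b-5p in MIRLET7BHG: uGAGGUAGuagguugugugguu
hsa-miR-503-5p in MIR503HG: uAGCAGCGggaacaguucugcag
hsa-miR-155-5p in MIR155HG: uUAAUGCUaaucgugauagggguu
hsa-miR-210-3p in MIR210HG: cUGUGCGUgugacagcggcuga
hsa-miR-22-3p in MIR22HG: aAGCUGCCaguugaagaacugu
hsa-miR-34a-5p in MIR34AHG: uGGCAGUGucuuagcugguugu
hsa-miR-4435 in CYTOR and MIR4435-2HG: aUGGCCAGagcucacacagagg
miR-221-3p and miR-222-3p share the seed GCUACAU, and let-7a-5p and let-7b-5p share GAGGUAG. miR-4435 is encoded with the same letters in CYTOR and in MIR4435-2HG, which are copies of each other over part of their length.

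The members were low beside protein-coding genes. Their median was 2.29 FPKM in shControl and 2.40 FPKM in shFKBP9, against 7.70 and 7.57 FPKM for the 10033 protein-coding genes at the same minimum. Only 18 members had at least 10 FPKM in both libraries, and 138 stayed under 3 FPKM in both. All members together held 0.266% of the fragments on genes in shControl and 0.284% in shFKBP9. They were also short, with a median gene length of 1514 bases against 5093 bases for protein-coding genes, so the median member rested on 142 fragments, counted over both libraries, against 1446 for a protein-coding gene. The range over members was 23 to 14078 fragments, and 27 members had fewer than 50. The order of the members was alike in the libraries, with a Spearman rho of 0.90 over the 236 members, given as a description.

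**Figure D1:**
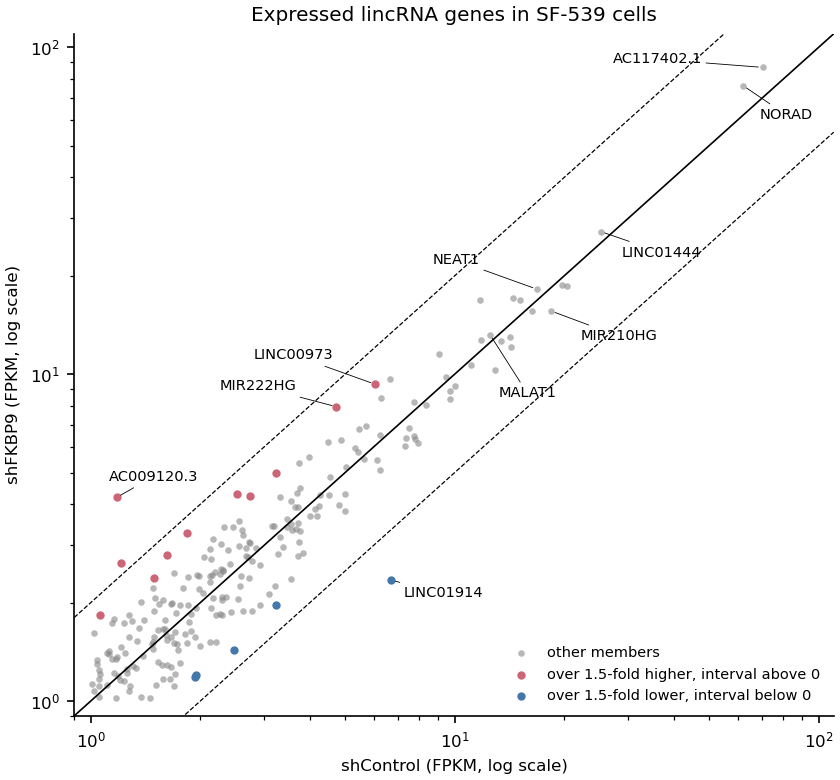
FPKM of the 236 expressed lincRNA genes in the shControl library (horizontal, log scale) and the shFKBP9 library (vertical, log scale), 1 point per gene. The solid line marks equal values and the dashed lines a 2-fold difference. Most members lie between the dashed lines, AC117402.1 and NORAD stand at 62.0 FPKM and above in both libraries, AC009120.3 lies above the upper line and LINC01914 below the lower one.

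AC117402.1 and NORAD were the highest members, both somewhat higher in shFKBP9. AC117402.1 (chromosome 3, 110888384 to 110893476, minus strand) had 70.1 FPKM in shControl and 86.8 FPKM in shFKBP9, from 1730 and 2032 fragments, a log2 ratio of 0.31 (interval 0.22 to 0.40). The gene has no entry of its own in GENCODE 44, where its span lies within NECTIN3-AS1 on the same strand. In the deposited table NECTIN3-AS1 is a separate gene with 14.9 and 13.7 FPKM and a log2 ratio of -0.12 (interval -0.32 to 0.08), an interval that does not meet that of AC117402.1.

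NORAD (chromosome 20, 36045622 to 36050960), the cytoplasmic RNA that binds Pumilio proteins and guards chromosome number, had 62.0 FPKM in shControl and 76.3 FPKM in shFKBP9. Its 5995 and 6998 fragments gave a log2 ratio of 0.30 (interval 0.25 to 0.35). NORAD, NEAT1 and MALAT1 together took 32.1% of all member fragments. The sequence feature for which NORAD is known stood out here too. Its canonical transcript of 5401 bases held 15 Pumilio elements, written TGTANATA, which is 2.78 per kilobase. It ranked first of 225 members both by number and by density. The next highest number in a member was 6, and 203 members had 0. The stretch from base 2514 to 2713 of the transcript is shown because 3 elements, in capitals, lie within its 200 bases.
NORAD: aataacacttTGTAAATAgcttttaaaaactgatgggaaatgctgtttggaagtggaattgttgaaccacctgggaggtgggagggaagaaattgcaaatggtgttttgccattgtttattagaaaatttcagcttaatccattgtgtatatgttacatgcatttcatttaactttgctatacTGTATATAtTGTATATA

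Transcripts of 3 proteins that bind NORAD were compared in the same libraries. PUM2 had 11.6 FPKM in shControl and 14.3 FPKM in shFKBP9, a log2 ratio of 0.30 (interval 0.20 to 0.40). For RBMX, another NORAD partner, the ratio was 0.01, and for KHDRBS1 0.05. PUM2 was the only one of these 3 whose interval lay off 0.

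NEAT1 and MALAT1, neighbours on chromosome 11 and both retained in the nucleus, differed little between the libraries. NEAT1, the scaffold of paraspeckles, had 16.8 FPKM in shControl and 18.2 FPKM in shFKBP9, from 6945 and 7133 fragments, with a log2 ratio of 0.11 (interval 0.07 to 0.16). MALAT1, an RNA of nuclear speckles, had 12.5 and 13.2 FPKM, from 2000 and 2007 fragments, with a log2 ratio of 0.08 (interval -0.01 to 0.17). Of the 100-base windows of MALAT1, 50.4% also lie on its antisense RNA TALAM1, and the strand setting of the count is not given in the sources used here, so reads of the pair cannot be told apart. Of 13 paraspeckle protein genes at the minimum, 7 had an interval below 0 and 0 had one above, with log2 ratios from -0.23 (RBM14) to 0.08 (PSPC1) and a median of -0.06. Of 10 nuclear speckle and MALAT1 processing genes, 2 were above and 3 below 0, from -0.27 (SRRM2) to 0.13 (PNN). Over all 11104 genes at the same minimum, 18.5% had an interval above 0 and 22.6% one below it, so at this depth intervals off 0 were common among well covered genes.

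Of the other members among the 15 highest, LINC01444 had 25.2 and 27.3 FPKM (log2 ratio 0.12) and AC006058.1 had 20.4 and 18.6 FPKM (-0.14). LINC01605 had 19.7 and 18.8 FPKM (-0.07) and AC084033.3 had 14.5 and 17.1 FPKM (0.24). AL355338.1, AC026401.3 and LINC01050 lay between 12.1 and 14.3 FPKM in every library, with log2 ratios of -0.13, -0.24 and -0.09. AC099552.1 (chromosome 7, 155196563 to 155198455) had the largest ratio of the 15, with 11.7 FPKM (158 fragments) in shControl and 16.8 FPKM (215 fragments) in shFKBP9 and a log2 ratio of 0.52 (interval 0.22 to 0.83). The 15 highest members held 35.4% of the summed FPKM of all members.

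Larger differences were found in few members, and at low levels. The log2 ratios had quartiles of -0.18 and 0.27 and a median of 0.05, where all 11104 genes at the minimum had quartiles of -0.15 and 0.12 and a median of -0.02. Of the members, 126 were higher in shFKBP9 (53.4%, against 46.4% of all genes at the minimum) and 110 lower. More than 2-fold higher were 2 members (0.847%), against 0.144% of all genes at the minimum, and more than 2-fold lower was 1 member (0.424%), against 0.108%. More than 1.5-fold higher with an interval above 0 were 11 members (4.66%), against 0.955%, and more than 1.5-fold lower with an interval below 0 were 5 members (2.12%), against 1.04%. An interval above 0 at any ratio was found for 29 members (12.3%, against 18.5%) and one below 0 for 16 (6.78%, against 22.6%).

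Depth moved with these shares. Among genes with fewer than 100 fragments, 6 of 82 members (7.32%) passed 1.5-fold in either direction, here whether or not the interval took in 0, against 14.5% of 454 genes at the minimum. Between 100 and 300 fragments the shares were 6.19% of 97 members and 6.66% of 1111 genes. Between 300 and 1000 fragments they were 12.2% of 41 members and 2.25% of 3162 genes, and all 5 of these members were higher in shFKBP9 (AC015813.1, AC005261.1, MIR222HG, LINC01060 and LINC00294). From 1000 fragments on, 0 of 16 members and 0.690% of 6377 genes passed.

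**Figure D2:**
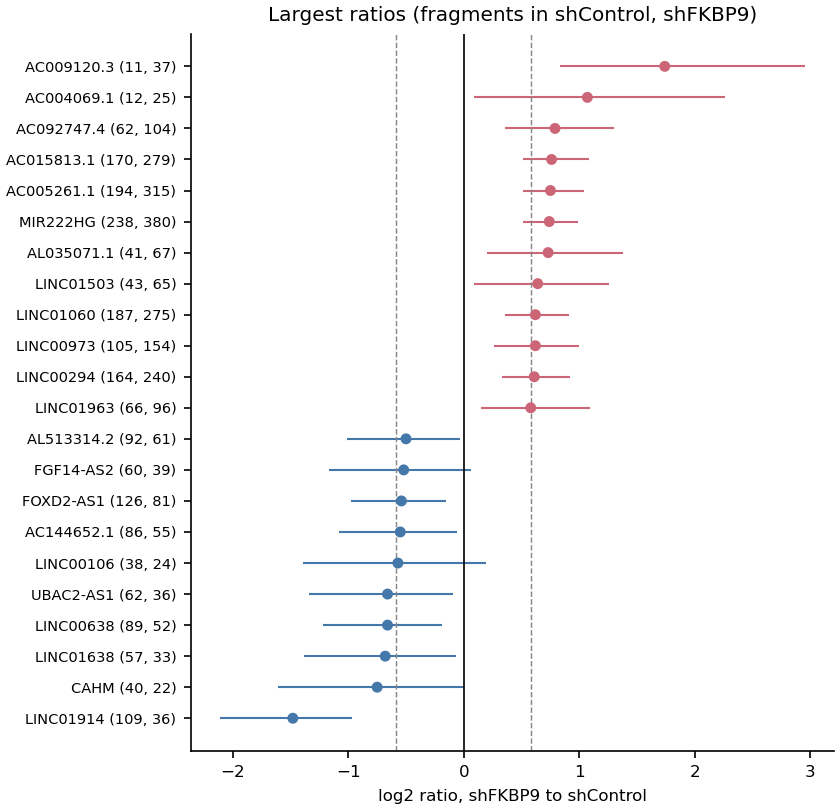
Log2 ratio of shFKBP9 to shControl (points) with the 95% counting interval (lines) for the 10 highest and 10 lowest ratios among members with at least 50 fragments together, and for AC009120.3 and AC004069.1, which have fewer. Fragments in shControl and shFKBP9 stand in brackets, dashed lines mark 1.5-fold. The interval of LINC01914 ends at -0.97, that of MIR222HG starts at 0.51.

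LINC01914 (chromosome 2, 41931599 to 41933723, minus strand), a lincRNA with 4 exons in GENCODE 44, had 109 fragments in shControl and 36 in shFKBP9. In FPKM it had 6.70 and 2.34, a log2 ratio of -1.48 (interval -2.11 to -0.97), and was the only member more than 2-fold lower. Its span overlapped no other gene of the table and it shared 0% of its 100-base windows with another gene. The nearest protein-coding gene, C2orf91, had 8 and 3 fragments, too few to compare. The 4 other members more than 1.5-fold lower rested on 62 to 141 fragments. CAHM had 40 and 22 fragments (2.47 and 1.43 FPKM, log2 ratio -0.75), LINC01638 had 57 and 33 (3.23 and 1.97 FPKM, -0.68), LINC00638 had 89 and 52 (1.95 and 1.20 FPKM, -0.66) and UBAC2-AS1 had 62 and 36 (1.93 and 1.18 FPKM, -0.66). The interval of CAHM ended just below 0, those of the other 3 at -0.07, -0.19 and -0.09.

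The next 5 of the lowest ratios stayed within 1.5-fold. FOXD2-AS1 had 126 and 81 fragments (-0.54, interval -0.98 to -0.15), AC144652.1 had 86 and 55 (-0.55, interval -1.08 to -0.06, or -0.99 to 0.03 with GC centring) and AL513314.2 had 92 and 61 (-0.50). The intervals of LINC00106 (38 and 24 fragments, -0.57) and FGF14-AS2 (60 and 39 fragments, -0.52) took in 0. AL513314.2 shared 33.9% of its windows with other genes, chiefly LINC01347, so its value is uncertain.

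Of the higher members, MIR222HG (chromosome X, 45745211 to 45770274, minus strand) had the most fragments. It had 4.72 FPKM from 238 fragments in shControl and 7.95 FPKM from 380 fragments in shFKBP9, a log2 ratio of 0.74 (interval 0.51 to 0.99). AC015813.1 had 170 and 279 fragments (1.62 and 2.80 FPKM, log2 ratio 0.76, interval 0.51 to 1.08). AC005261.1, which overlaps no other gene of the table, had 194 and 315 fragments (2.52 and 4.31 FPKM, log2 ratio 0.75, interval 0.51 to 1.04). The 3 intervals overlap almost whole, so these members cannot be ranked among themselves.

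AC092747.4 had 62 and 104 fragments (log2 ratio 0.79, interval 0.36 to 1.30) and AL035071.1 had 41 and 67 (0.73, interval 0.20 to 1.38). LINC01503 had 43 and 65 fragments (0.64, interval 0.09 to 1.26), LINC01060 187 and 275 (0.62, interval 0.36 to 0.91) and LINC00294 164 and 240 (0.61, interval 0.33 to 0.92). LINC01963, the tenth, had 66 and 96 fragments and a ratio of 0.58, just under 1.5-fold. LINC00294 overlaps the spans of 3 other genes, CSTF3, TCP11L1 and the pseudogene PIGCP1, and AC092747.4 that of MED21, whose own log2 ratio was 0.04.

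Both members beyond 2-fold upward had fewer than 50 fragments and are named because they make up that count. AC009120.3 (chromosome 16, 74313337 to 74315634) had 11 fragments in shControl and 37 in shFKBP9, or 1.18 and 4.20 FPKM, with a log2 ratio of 1.74 (interval 0.83 to 2.95). AC004069.1 had 12 and 25 fragments, or 1.21 and 2.65 FPKM, with a log2 ratio of 1.07 (interval 0.09 to 2.26). AC004069.1 shared 10.9% of its windows with another gene, AC009120.3 0%.

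LINC00973 (chromosome 3, 98981058 to 98983096), an RNA reported to respond to anticancer drugs, had 105 fragments in shControl and 154 in shFKBP9, or 6.03 and 9.32 FPKM, with a log2 ratio of 0.62 and an interval that starts at 0.26. Its nearest protein-coding gene was higher as well. DCBLD2, a membrane receptor, had 9073 and 12815 fragments and a log2 ratio of 0.57 (interval 0.54 to 0.61), with 79369 bases between the starts. Beside the other higher members the nearest coding gene lay close to 0 where it had enough fragments, with PSMD7 at -0.05 beside AC009120.3, TET2 at 0.11 beside AC004069.1 and VEZF1 at 0.01 beside AC015813.1. IER5L was at 0.00 beside LINC01503, TCP11L1 at 0.11 beside LINC00294, ZNF543 at -0.08 beside AC005261.1 and XRCC5 at -0.03 beside LINC01963. Beside the lower members, SLC25A6 was at -0.24 (interval -0.38 to -0.10) next to LINC00106, ZBTB42 at -0.21 (interval -0.44 to 0.02) next to LINC00638 and HHIPL2 at -0.06 next to AL513314.2.

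Of 26 listed host genes 10 were members, of which 4 had an interval above 0 (MIR222HG, MIR503HG, MIR4435-2HG and CYTOR, against 18.5% of all genes at the minimum), 2 one below 0 (MIR210HG and MIR34AHG, against 22.6%) and 4 one that took in 0, with a median log2 ratio of 0.16. MIR222HG was the only one past 1.5-fold. MIR503HG, host of miR-503, had 121 fragments in shControl and 161 in shFKBP9, or 3.98 and 5.59 FPKM, and a log2 ratio of 0.48 (interval 0.14 to 0.84). MIR4435-2HG had 2.61 and 3.33 FPKM (0.34, interval 0.20 to 0.51) and CYTOR 1.98 and 2.42 FPKM (0.28, interval 0.14 to 0.45). CYTOR shares 36.8% of its windows with MIR4435-2HG, so how their fragments were divided is uncertain and the pair counts as a single observation.

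MIR210HG, the host of the hypoxia-induced miR-210, was the highest host. It had 18.4 FPKM in shControl and 15.6 FPKM in shFKBP9, from 774 and 622 fragments, with a log2 ratio of -0.24 (interval -0.39 to -0.08). MIR34AHG, host of the p53-induced miR-34a, had 3.27 and 2.82 FPKM and a ratio of -0.21 (interval -0.40 to -0.02). With centring by GC content, described below, both intervals took in 0, with MIR210HG at -0.13 (interval -0.28 to 0.03) and MIR34AHG at -0.14 (interval -0.34 to 0.04). MIR22HG had 16.3 and 15.6 FPKM (-0.07), MIR155HG 3.76 and 4.48 FPKM (0.25, interval -0.13 to 0.64), MIRLET7BHG 3.57 and 3.34 FPKM (-0.09) and PVT1 1.58 and 1.66 FPKM (0.07). The mature microRNAs printed above were not measured by these libraries, and the fragments listed on the hairpins themselves were few, with 17 and 8 on MIR210, 6 and 3 on MIR221 and 3 and 7 on MIR222.

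The genes that cut and load microRNAs had small ratios. All 6 had a negative log2 ratio, with an interval below 0, as in 22.6% of all genes at the minimum, for AGO2 (-0.31), XPO5 (-0.23), TARBP2 (-0.22) and DICER1 (-0.14), and one that took in 0 for DROSHA (-0.09) and DGCR8 (-0.08). DICER1 had 5.29 FPKM in shControl and 4.79 FPKM in shFKBP9, AGO2 3.75 and 3.01 FPKM. No gene of this list passed 1.5-fold. Among 8 genes of nuclear RNA decay at the minimum, DIS3 (0.27) had an interval above 0, PABPN1 (-0.15) one below 0 and 6 one that took in 0.

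**Figure D3:**
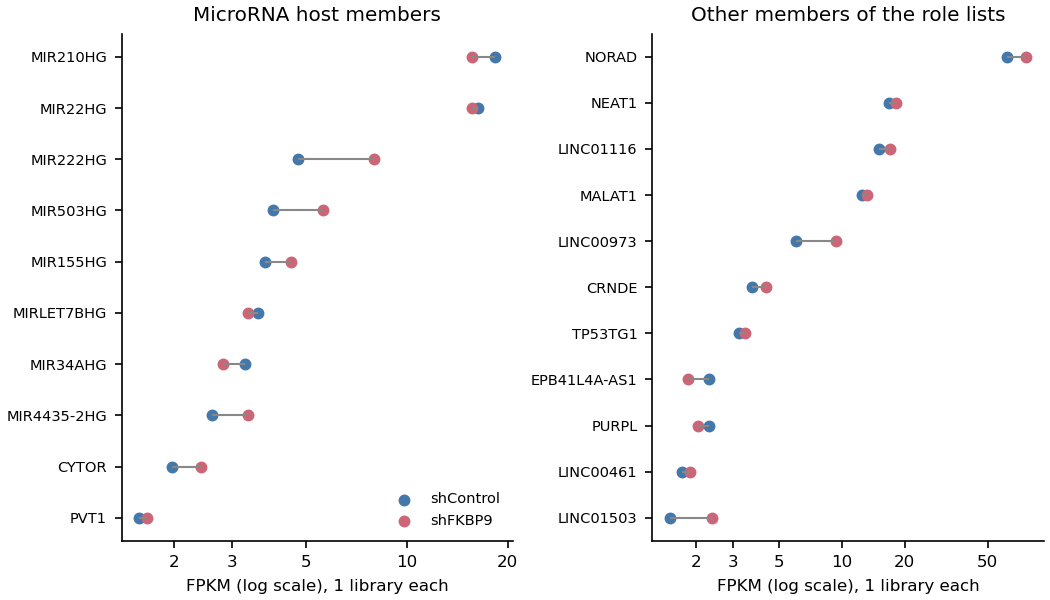
FPKM in the shControl library (blue) and the shFKBP9 library (red) for the 10 microRNA host members (left) and 11 other members of the role lists (right), on log scales. The widest gap among hosts is that of MIR222HG, from 4.72 to 7.95 FPKM, whereas PVT1 and MIR22HG lie almost on the same value in both libraries.

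Members with a named part in cancer or stress are given beside the shares over all genes at the minimum, of which 18.5% had an interval above 0 and 22.6% one below it. Of 6 p53-responsive members, 2 had an interval above 0 (NORAD and NEAT1) and 1 one below 0 (MIR34AHG). TP53TG1 had 3.19 and 3.42 FPKM (log2 ratio 0.10) and PURPL 2.30 and 2.03 FPKM (-0.17), both with an interval over 0. Of 8 members named in glioma research, 4 had an interval above 0 (NEAT1, CYTOR, CRNDE and LINC01503) and 0 one below it. Among these, CRNDE, which starts head to head with IRX5, had 3.69 and 4.32 FPKM (0.22, interval 0.03 to 0.43, or -0.04 to 0.37 with GC centring). LINC01116, high in gliomas, had 15.1 and 16.9 FPKM (0.16, interval -0.02 to 0.34), and LINC00461, host of miR-9, had 1.71 and 1.86 FPKM (0.11, interval -0.17 to 0.42). Of 5 stress and growth responsive members, LINC00973 was the only one past 1.5-fold (0.62), and with GC centring it came within 1.5-fold (0.48). Of 3 members in the list of cytoplasmic RNAs, NORAD and CYTOR had an interval above 0, and EPB41L4A-AS1 had 2.30 and 1.83 FPKM (-0.31, interval -0.71 to 0.05). EPB41L4A-AS1 shares 42.4% of its windows with EPB41L4A on the opposite strand, so its fragments are uncertain. The list of imprinted and X-inactivation centre RNAs had 0 members.

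By position, members with a start head to head with a coding gene had a lower median ratio than the rest, with exceptions. Of the 236 members, 48 (20.3%) started within 2000 bases of a protein-coding start on the other strand and ran away from it, and these are called divergent. The median log2 ratio was -0.13 in divergent members and 0.08 in the others. Of the 10 lowest ratios 4 were divergent (CAHM beside QKI, UBAC2-AS1 beside UBAC2, AC144652.1 beside INSIG1 and FOXD2-AS1 beside FOXD2), and of the 10 highest ratios 0. Their coding partners differed less. QKI, an RNA-binding protein whose start lies 40 bases from that of CAHM, had 3138 and 2616 fragments and a log2 ratio of -0.18. UBAC2 had 1351 and 1289 fragments (0.01), INSIG1, an ER protein of sterol control, 5877 and 5769 (0.05), and FOXD2 85 and 59 (-0.40, interval -0.95 to 0.05).

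Across divergent members the ratio of the lincRNA and that of its coding partner went together weakly, with Pearson's r of 0.18 and Spearman's rho of 0.15 over the 43 pairs whose coding gene reached the minimum. Over 131 other members and their nearest coding gene, r and rho were 0.10. These are correlations across genes in the same libraries, with no test. In 20 of the 43 divergent pairs both genes had the same sign. OSER1-DT was the highest divergent member, with 92 and 128 fragments and a ratio of 0.53, and its partner OSER1 had 0.24.

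**Figure D4:**
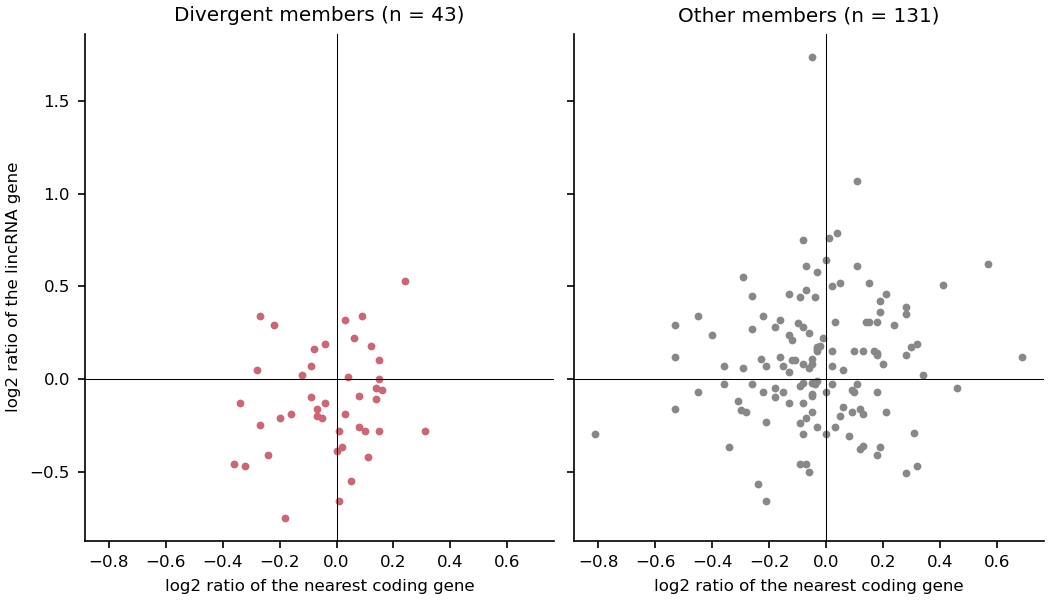
Log2 ratio of each lincRNA gene (vertical) against that of its nearest protein-coding gene (horizontal), for 43 divergent members (left) and 131 other members (right) whose coding gene had at least 1 FPKM in both libraries. Points lie on both sides of 0 on both axes in each panel, and no divergent member lies above 0.53.

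GC content moved with the ratios, among members and among all genes. Over 225 members with a canonical transcript in GENCODE 44, Spearman's rho between GC content and log2 ratio was -0.32, and over 11066 genes at the minimum it was -0.43. In the 75 members with the lowest GC content the median log2 ratio was 0.13, in the 75 in the middle 0.05 and in the 75 with the highest GC content -0.09. All genes in the same GC ranges had medians of 0.09, -0.04 and -0.10. Of the 11 members over 1.5-fold higher 10 lay below the median GC content of the members, 48.7%, and of the 5 lower members 1, LINC01914 with 44.2%. When the median log2 ratio of all genes in the same of 10 equal bins of GC content was subtracted, LINC01914 had -1.50, MIR222HG 0.63, AC015813.1 0.69 and AC005261.1 0.61, whereas 5 members were no longer called: LINC00973 (0.48) and LINC00638 (-0.54) came within 1.5-fold, and the intervals of CAHM (-0.63), LINC01638 (-0.60) and AC004069.1 (0.93) took in 0. Called only after this step was OSER1-DT (0.60, interval 0.22 to 1.02), a divergent member that was higher in shFKBP9. Among named members within 1.5-fold, the intervals of MIR210HG, MIR34AHG, CRNDE, AC144652.1 and AC084033.3 (0.12) took in 0 after centring, and those of LINC01444 (0.18) and AC026401.3 (-0.35) no longer did. Divergent members had a median of -0.11 after this step, against 0.10 in the others. Whether GC content has a part in the ratios of single members was not tested.

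**Figure D5:**
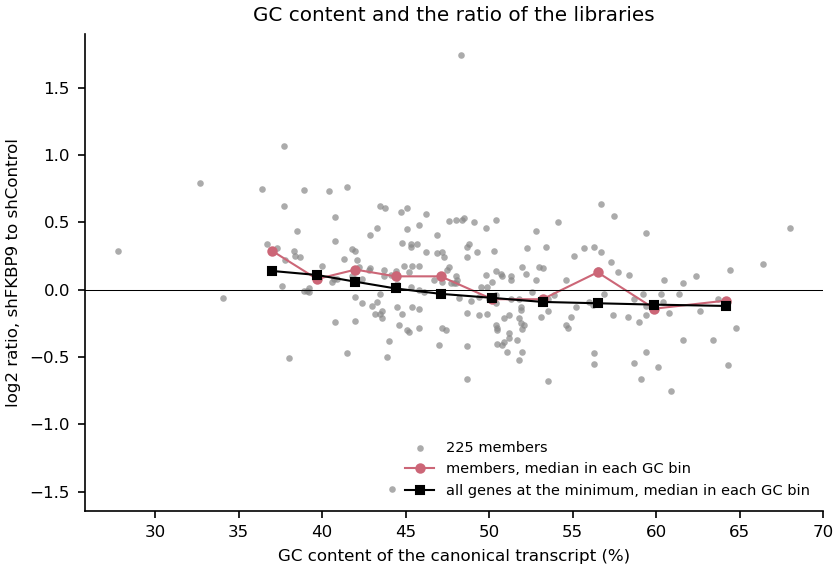
Log2 ratio of shFKBP9 to shControl against the GC content of the canonical transcript, for 225 members (grey points), with the median of members (red) and of all genes at the minimum (black) in each of 10 bins of GC content. The black line falls from 0.14 in the lowest bin to -0.12 in the highest, and the red line runs from 0.29 to -0.08.

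The members' annotation limits some of these values. GENCODE 44 holds 225 of the 236 members under the same gene ID, all typed lncRNA, 64 with 1 exon and 161 with more. For 8 of the 11 without an entry, the span lies in another gene of the same strand. The span of 125 members overlaps another gene of the table and that of 52 a protein-coding gene. Some members share their sequence with such a gene or with a copy elsewhere, and their fragments are uncertain. AC009283.1 and AC091057.4 share 100% of their windows with CDK12 and ARHGAP11B. AC008687.3 shares 99.8% with NTF4 and AC092171.2 97% with FBXL18, both on the opposite strand. FAM225A shares 89.5% with FAM225B, AL365203.2 83.4% with ITGB1, AC108488.1 70.0% with an unnamed gene and AC092368.3 68.7% with RAB43. Close neighbours among members did not always have like ratios. LINC01615 had a log2 ratio of -0.46 and LINC02544, on the same strand of chromosome 6, one of 0.61, with 84 and 25 fragments and both intervals over 0.

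Near the minimum of the rule the values were close on both sides. Just inside 1 FPKM in the lower library lay AC145207.5 (1.01 and 1.13 FPKM), LINC02544 (1.02 and 1.61 FPKM) and AC138393.3 (1.45 and 1.02 FPKM). Just outside lay CARMN (0.998 and 1.69 FPKM), AC073195.1 (1.64 and 0.996 FPKM) and LINC02154 (0.993 and 1.31 FPKM). CARMN, a long RNA of smooth muscle cells, is 17988 bases long and had 325 and 522 fragments, a log2 ratio of 0.71 (interval 0.56 to 0.96). Just inside the length minimum lay AC009237.15 with 501 bases and AC009120.3 and LINC01786 with 513 bases, just outside AC048341.2 and AC110285.6 with 491 bases and LINC02062 with 478. By length, 44 lincRNA genes were left out, and by name 4.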

How the data were processed

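RNA-Seq of SF-539 cells was analysed from the deposited gene table, which holds 1 shControl and 1 shFKBP9 library. The authors removed reads with adapters, undetermined bases or low quality, aligned read pairs to hg38 with HISAT2 2.0.5 and counted them per gene with featureCounts 1.5.0-p3 (versions as in the submitters' processing notes). The values they deposited are FPKM, with gene lengths and biotypes. The annotation release and the strand setting are not given in the sources used here.

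Each FPKM value times the gene length was a whole multiple of 1 step per library (largest distance to a whole number 8.3e-09), which gave back the fragments. A fragment on 1 kilobase was worth 0.0552 FPKM in shControl and 0.0582 FPKM in shFKBP9. Log2 ratios are of shFKBP9 to shControl after 0.1 was added to FPKM. Exact Clopper-Pearson 95% intervals were computed from fragments without that addition, and they cover counting error only. With 1 library per condition no count test was possible. Background shares are over all genes that reach 1 FPKM in each library and 500 bases.

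The members, the lists of roles, partners and markers and the rule for naming were chosen with earlier results of these data known. Named are FKBP9, the 15 highest members by mean FPKM, the 10 highest and 10 lowest ratios among members with at least 50 fragments together, members of the role lists, genes of the partner lists, the 3 genes just inside and outside each minimum, and nearest protein-coding genes. AC009120.3 and AC004069.1 were named after their values were seen, as were NECTIN3-AS1, OSER1-DT, LINC01615, LINC02544 and the members named for shared sequence.

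Genes were matched by Ensembl ID to GENCODE 44, which is on the same assembly as the files. Shared sequence is the share of a member's 100-base windows, over its GENCODE 44 transcripts, that occur on either strand in another gene, and it was computed for 229 members. GC content is that of the canonical transcript. Promoters, hairpins and mature microRNAs are from RefSeq (GRCh38.p14). The alternatives were other additions to FPKM (1 or 0.01), median and TPM scaling, other minimums, and leaving out overlapping or shallow members. Centring by GC content and leaving out members with shared sequence were added after seeing the data. Fragment recovery, intervals and calls were tested on simulated data. Calculations were made in Python 3.11.15 (scipy 1.17.1, pandas 2.3.3, numpy 2.4.6), figures in matplotlib 3.10.9.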

Additional observations from a re-analysis of the deposited data

How the results depend on the processing

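The median log2 ratio of the members, 0.05 as reported, lay between 0.01 and 0.07 under the 12 alternatives. The counts of members past a fold were small and depended on the minimum. Given as more than 2-fold higher, more than 2-fold lower, 1.5-fold higher and 1.5-fold lower (2, 1, 11 and 5 as reported), they were 9, 4, 19 and 11 of 412 members at 0.5 FPKM in both libraries, and 11, 8, 19 and 11 of 308 at 1 FPKM in either. At 2 FPKM in both (124 members) the first was 0, the third 5 and the fourth 1. With 1 added to FPKM, which compresses the ratios of low genes, the first was 1, the third 4 and the fourth 1. With at least 50 fragments together (209 members) the first was 0. Without members overlapping another gene (111 members) the first was 1 and the third 4, and without those sharing sequence (185 members) the first was 1. With no minimum length (278 members) the second was 4. With GC centring (225 members) the first was 1 and the fourth 2.

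The 49 members named by level, ratio or role kept their direction under both additions and both scalings. Under GC centring LINC01605 went from -0.07 to 0.02, MIRLET7BHG from -0.09 to 0.02 and MIR22HG from -0.07 to 0.00, all with deposited intervals over 0, and NORAD moved beyond its counting interval, to 0.24. Median and TPM scaling change the ratio of the libraries by 0.02 and -0.02 on the log2 scale, before the 0.1 is added. With 1 added to FPKM the log2 ratio of FKBP9 was -3.16.

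No paired analysis was possible because each condition has 1 library. Depth is a limit, with a median of 142 fragments per member. Of 219 members within 1.5-fold, 29 had an interval off 0. An interval that took in 0 cannot tell a small difference from none.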
